A study of Mus musculus with 8 samples.

Results

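Ccdc172, Gli3, Tmem47, Fmr1nb, Gca and Epha7 are 6 genes, of 35976 gene symbols in the count table, that were selected on their measured counts, for transcripts much lower in Mll2 knockout (KO) oocytes with little or the opposite change in the H2A.Z line. The selection used all 8 libraries, so the size of the fall in Mll2 KO and the small or opposite change in the H2A.Z line are given as a description, with no test. All 6 passed the filter on low counts. In the libraries labelled H2A.Z DKO only Gli3 and Tmem47 overlapped their controls, so a loss in Mll2 KO alone describes these best. Fmr1nb and Ccdc172 were lower there as well, and Gca and Epha7 were higher. Epha7 started near 1 CPM (a count scaled to library size) in Mll2 WT 2.

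The libraries came from full-grown mouse oocytes, the last stage of oocyte growth in the ovary, each made from polyadenylated RNA of roughly 20 pooled oocytes whose zona pellucida had been removed. There were 4 groups of 2 libraries. The Mll2 line comprised Mll2 wild type (WT) and Mll2 KO oocytes, and the H2A.Z line comprised H2A.Z control oocytes, with the genotype wild type, and oocytes labelled as a double knockout (DKO) of H2A.Z.1 and H2A.Z.2. The age and strain of the mice, the alleles and any Cre driver were not stated in the labels. Whether replicate pools came from different animals is also unstated, so SEs and p-values cover the spread between these pools alone. Mll2, also named Kmt2b, encodes a methyltransferase that places methyl groups on lysine 4 of histone H3 (H3K4). H3K4 trimethylation marks promoters, and in growing oocytes MLL2 is known for depositing it over broad, CpG-rich and often untranscribed regions. The histone variant H2A.Z replaces H2A in nucleosomes that flank transcription start sites.

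Library totals ran from 20309233 to 30087863 counts. Kmt2b was at 41.9 and 42.4 CPM in Mll2 WT and at 8.73 and 9.28 CPM in Mll2 KO, as its label implies. In the H2A.Z line Kmt2b was at 13.7 and 15.4 CPM in the controls and at 20.4 and 20.6 CPM under the DKO label. These values lie between those of Mll2 KO and Mll2 WT. H2afz, which encodes H2A.Z.1, was at 23.9 and 30 CPM in the H2A.Z controls and at 322 and 317 CPM in the libraries labelled DKO. H2afv, which encodes H2A.Z.2, was at 108 and 107 CPM in the controls and at 285 and 294 CPM under that label. Both go against the label, so directions in that line are those of the label only. The 12 oocyte markers summed to 25500 to 29300 CPM in the H2A.Z line, 18500 to 23200 CPM in Mll2 WT and 16300 to 18400 CPM in Mll2 KO. In Mll2 KO 3 were called lower (Zp2, Kit and Dppa3) and none higher by the edgeR test described further on. Of all tested genes, 16.2% were called lower and 14.4% higher in Mll2 KO. The 15 granulosa and cumulus markers summed to 92 to 94.5 CPM in Mll2 WT and 102 to 103 CPM in Mll2 KO, with Amh and Ptx3 at 0 in both groups. Of the 10 tested, 3 were called higher in Mll2 KO (Fshr, Nr5a2 and Inhbb) and 2 lower (Cyp19a1 and Kitl), with Fshr going from 0.992 and 0.594 to 7.25 and 7.7 CPM and Cyp19a1 from 47.8 and 51.2 to 27.9 and 30 CPM. They summed to 94.6 to 95.8 CPM in the H2A.Z controls and 126 to 127 CPM under the DKO label, where Amh, Ptx3 and Tnfaip6 were at 0. The 12 theca and stroma markers lay between 9.06 and 10.3 CPM in the Mll2 line, at 14.3 to 16.2 CPM in the H2A.Z controls and at 24.1 to 27.4 CPM under the DKO label. The 15 blood, immune and endothelial markers ran from 63.1 to 87.1 CPM, highest in Mll2 KO, and the 4 haemoglobin genes Hba-a1, Hba-a2, Hbb-bs and Hbb-bt were at 0 in every group. C1qb and Pecam1 had by far the highest levels of these markers. C1qb went from 32.2 and 33.6 CPM in Mll2 WT to 44.3 and 41.5 CPM in Mll2 KO, and Pecam1 from 33.1 and 32.3 to 33.5 and 40.8 CPM. Of the 5 tested, 2 were called higher in Mll2 KO (C1qb and Kdr) and 1 lower (Cd68). The part of other cells in the values below was not tested, and in pooled oocytes fewer cells with a transcript and less of it per cell cannot be told apart.

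The 6 genes have different known roles. Gli3 encodes a zinc finger transcription factor of Hedgehog signalling, which is processed to a repressor when no Hedgehog ligand is bound. Epha7 encodes a receptor tyrosine kinase that binds membrane-anchored ephrin ligands on neighbouring cells. Gca encodes grancalcin, a calcium-binding protein with penta-EF-hand motifs, and Tmem47 a membrane protein related to the PMP22, EMP and claudin family. Fmr1nb lies beside the fragile X gene Fmr1, and its human counterpart is known as a cancer-testis antigen. Ccdc172 encodes a coiled-coil protein of sperm.

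On genome build mm10 (RefSeq) the genes lie on 5 chromosomes, all on the plus strand. Ccdc172 occupies chr19:58511985-58553104, Gli3 chr13:15463723-15730026, Gca chr2:62664327-62694109 and Epha7 chr4:28813066-28967503. Tmem47 (chrX:81070644-81097875) and Fmr1nb (chrX:68761839-68804561) are X-linked. Spans run from 27232 bp for Tmem47 to 266304 bp for Gli3, and the longest coding transcripts in GENCODE M21 have 9 exons for Ccdc172, 15 for Gli3, 3 for Tmem47, 6 for Fmr1nb, 8 for Gca and 17 for Epha7.

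The promoter sequences are shown because MLL2 is known for acting at CpG-rich DNA and the 6 genes were selected for a fall in Mll2 KO. Whether MLL2 acts at these promoters was not tested. RefSeq windows from 250 bases before to 50 bases after the start site (GRCm38.p6) were found for all 6. In the Gli3 window, GENCODE M21 exons of any gene cover all 250 bases before the RefSeq start site, so no stretch is printed for it. For the 4 genes below, the stretch upstream of the start site that no annotated exon covers is written 5′ to 3′ on the plus strand, with capitals for matches on either strand to the motifs spelled out after them, the GLI site aside. The stretches are chr19:58511735-58511984 for Ccdc172, chrX:68761589-68761838 for Fmr1nb, chrX:81070394-81070643 for Tmem47 and chr2:62664077-62664284 for Gca.
Ccdc172: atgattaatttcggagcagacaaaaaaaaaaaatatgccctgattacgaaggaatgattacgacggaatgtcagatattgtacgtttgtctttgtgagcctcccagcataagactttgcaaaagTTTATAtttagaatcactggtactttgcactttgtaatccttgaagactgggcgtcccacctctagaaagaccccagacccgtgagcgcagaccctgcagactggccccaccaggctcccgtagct
Fmr1nb: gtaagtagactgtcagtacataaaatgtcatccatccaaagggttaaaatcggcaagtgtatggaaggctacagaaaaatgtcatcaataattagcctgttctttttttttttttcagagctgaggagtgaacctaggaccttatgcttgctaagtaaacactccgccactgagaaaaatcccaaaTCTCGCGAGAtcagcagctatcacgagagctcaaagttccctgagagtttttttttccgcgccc
Tmem47: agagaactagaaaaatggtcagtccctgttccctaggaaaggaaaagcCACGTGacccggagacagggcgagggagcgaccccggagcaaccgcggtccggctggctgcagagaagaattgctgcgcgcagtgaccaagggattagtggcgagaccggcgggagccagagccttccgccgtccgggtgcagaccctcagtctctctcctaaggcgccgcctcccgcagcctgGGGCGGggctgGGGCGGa
Gca: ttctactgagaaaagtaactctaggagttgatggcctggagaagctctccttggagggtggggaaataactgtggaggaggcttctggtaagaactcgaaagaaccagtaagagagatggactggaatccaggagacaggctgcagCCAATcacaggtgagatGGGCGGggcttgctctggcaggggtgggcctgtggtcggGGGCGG

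The 6 windows did not share a base composition. The GC content was 71% for Gli3, 68.7% for Tmem47, 67% for Epha7, 60.7% for Gca, 48.7% for Ccdc172 and 44% for Fmr1nb, beside a median of 58.7% over 12440 tested genes with a window. The number of CpG dinucleotides ran from 9 in Fmr1nb to 39 in Gli3. The observed over expected CpG ratio was 1.12 for Gli3, above that of 97.4% of tested genes, though the upstream part of its window lies in annotated exons. It was 0.835 for Tmem47, 0.833 for Epha7, 0.788 for Ccdc172, 0.62 for Fmr1nb and 0.603 for Gca. The median over all tested genes was 0.701, with 0.361 and 0.881 as the quartiles, so 5 of the 6 windows lay between the quartiles.

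The palindrome TCTCGCGAGA, which reads the same on both strands, was present in 2 of the 6 windows, Ccdc172 and Fmr1nb, and in 0.916% of the 12440. It is the longest palindrome in the longest run that these windows share, and so was chosen after the sequences had been seen. It lies 5 to 14 bases after the start site of Ccdc172 (chr19:58511989-58511998) and 64 to 55 bases before that of Fmr1nb (chrX:68761775-68761784). With 5 bases on each side, and the palindrome in capitals, the sites read as follows.
Ccdc172: tgactTCTCGCGAGAtcagt
Fmr1nb: ccaaaTCTCGCGAGAtcagc
The run they share, palindrome included, is 14 bases long. The GC box GGGCGG was in 4 of the 6 windows (Gli3, Tmem47, Gca and Epha7) and in 54.1% of all, CCAAT in 2 (Gca and Epha7) and in 38.6% of all, the E-box CACGTG in 2 (Ccdc172 and Tmem47) and in 9.36% of all, and TATAAA in 1 (Ccdc172) and in 9.08% of all. The letters of a GLI site, GACCACCCA, were in none of the 6 and in 0.241% of all. These are matches of letters, searched on both strands, and say nothing on what binds there.

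**Figure D1:**
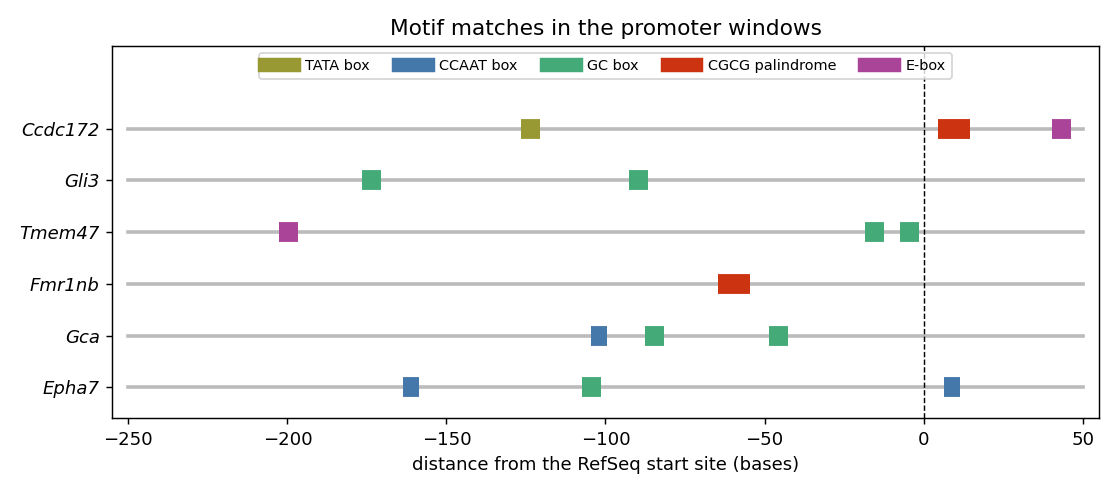
Motif matches in the RefSeq promoter windows of the 6 genes, by distance in bases from the start site (dashed line, negative before it). The CGCG palindrome is TCTCGCGAGA, found in Ccdc172 and Fmr1nb only, while GC boxes lie in the windows of Gli3, Tmem47, Gca and Epha7.

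Ccdc172 had the most counts of the 6 in the controls. It stood at 46.2 and 43.6 CPM in Mll2 WT, 0.708 and 0.975 CPM in Mll2 KO, 62.5 and 60.1 CPM in the H2A.Z controls, and 47.2 and 42.2 CPM under the DKO label. The knockout libraries were far below every other library, the H2A.Z controls were highest, and Mll2 WT and the libraries labelled DKO overlapped. The log2 difference was -5.73 ± 0.19 (SE) in Mll2 KO, with 50 counts left over both libraries against 2721 in WT. That is 1.87% of the WT level (95% exact binomial interval 1.39 to 2.48%, for counting error only, as for all such intervals here). The difference under the DKO label was -0.45 ± 0.13, with 73.2% left (interval 69.1 to 77.7%).

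Gli3 varied most between replicates among the 4 genes with high control levels. It stood at 19.8 and 39.6 CPM in Mll2 WT, 0.438 and 0.773 CPM in Mll2 KO, 20.7 and 26.6 CPM in the H2A.Z controls, and 43.6 and 24.9 CPM under the DKO label. Only the Mll2 KO libraries stood apart, since the other 3 groups overlapped each other and the WT pair itself differed 2-fold. The log2 difference was -5.60 ± 0.50 in Mll2 KO, with 2.04% left (interval 1.42 to 2.84%, 36 against 1799 counts), and 0.53 ± 0.35 under the DKO label. The start of Gli3 is overlapped on the opposite strand by the noncoding gene Gm6556 over 502 bp in GENCODE M21. Whether counting used strand is not given in the sources used here, so reads in that stretch cannot be told apart.

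Tmem47 had the least change in the H2A.Z line. It stood at 21.5 and 28.6 CPM in Mll2 WT, 0.607 and 0.975 CPM in Mll2 KO, 19.4 and 17.1 CPM in the H2A.Z controls, and 16.1 and 22.2 CPM under the DKO label. The pair labelled DKO enclosed both H2A.Z controls and overlapped Mll2 WT, and the Mll2 KO libraries were again well below all others. The log2 difference was -4.98 ± 0.27 in Mll2 KO, with 3.15% left (interval 2.31 to 4.22%, 47 against 1519 counts), and 0.07 ± 0.20 under the DKO label.

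Fmr1nb had the largest fall of the 6 in Mll2 KO and the clearest fall under the DKO label. It stood at 20.2 and 25.1 CPM in Mll2 WT, 0.236 and 0.47 CPM in Mll2 KO, 23.6 and 27.5 CPM in the H2A.Z controls, and 9.94 and 12.2 CPM under the DKO label. Its levels fell into 3 separate steps, with the controls of both lines highest and overlapping, the libraries labelled DKO below them, and Mll2 KO lowest. The log2 difference was -5.98 ± 0.28 in Mll2 KO, with 1.56% left (interval 0.961 to 2.39%, 21 against 1374 counts). In the libraries labelled DKO it was -1.21 ± 0.19, with 42.7% left (interval 38.3 to 47.6%).

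Gca was low in the controls of both lines and moved in opposite directions. It stood at 3.7 and 4.39 CPM in Mll2 WT, 0.674 and 0.269 CPM in Mll2 KO, 3.31 and 4.66 CPM in the H2A.Z controls, and 21.9 and 16.9 CPM under the DKO label. The control groups overlapped, with the libraries labelled DKO above and the Mll2 KO libraries below every control. The log2 difference was -3.09 ± 0.35 in Mll2 KO, with 11.7% left (interval 7.58 to 17.3%, 28 against 245 counts), and 2.27 ± 0.26 under the DKO label, from 181 to 850 counts. The end of Gca is overlapped on the opposite strand by the potassium channel gene Kcnh7 over 696 bp.

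Epha7 had the fewest counts of the 6 in the controls, and its largest difference was the one under the DKO label. It stood at 3.37 and 1.15 CPM in Mll2 WT, 0.843 and 0.202 CPM in Mll2 KO, 1.5 and 1.75 CPM in the H2A.Z controls, and 17.1 and 13 CPM under the DKO label. The WT pair differed 2.92-fold and the KO pair 4.18-fold, so the lower WT and the higher KO library lay close to each other, with 35 and 25 counts. The log2 difference was -2.11 ± 0.57 in Mll2 KO, with 23.1% left (interval 15.1 to 34.3%), and was -1.14 without Mll2 WT 1 and -1.46 without Mll2 KO 2. Without Mll2 KO 1 it was the largest of any setting, -3.45. The libraries labelled DKO differed from their controls by 3.20 ± 0.48, from 73 to 660 counts.

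**Figure D2:**
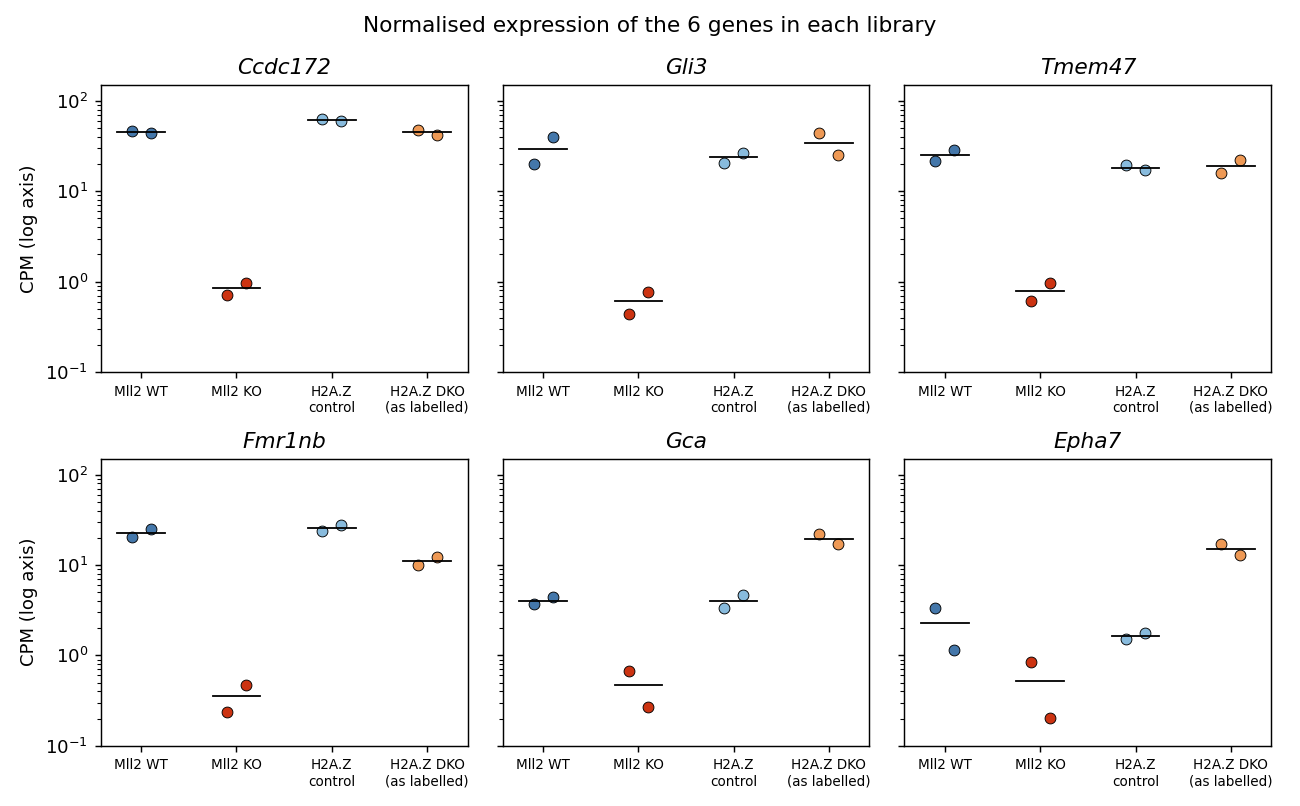
Normalised expression in CPM (log axis) of the 6 genes, with 1 point for each library and a bar at the mean of the 2 libraries of a group. Mll2 KO is lowest for every gene. The libraries labelled H2A.Z DKO overlap their own controls for Gli3 and Tmem47, and lie below them for Ccdc172 and Fmr1nb and above them for Gca and Epha7.

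The genes thus formed a set of 4 with 18.2 to 61.3 CPM as control means and under 1 CPM in Mll2 KO, and a pair, Gca and Epha7, with control means of 1.63 to 4.04 CPM. Over the 8 libraries, the root-mean-square distance between centred log2 CPM profiles was 0.439 to 0.704 within the set of 4, 0.673 between Gca and Epha7, and 1.17 to 2.18 between the set and the pair. The share of transcript left in Mll2 KO was 1.56 to 3.15% in the set of 4 and 11.7 and 23.1% in the pair. The intervals of these shares cover counting error only, and the Mll2 KO libraries differed 2.51-fold for Gca and 4.18-fold for Epha7. The values entered the selection, so the split into a set and a pair is a description. Few of the 16847 tested genes had a lower log2 difference in Mll2 KO: 32 for Fmr1nb, 42 for Ccdc172, 46 for Gli3, 58 for Tmem47, 198 for Gca and 440 for Epha7. In the libraries labelled DKO, 103 genes had a higher one than Epha7 and 291 a higher one than Gca.

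**Figure D3:**
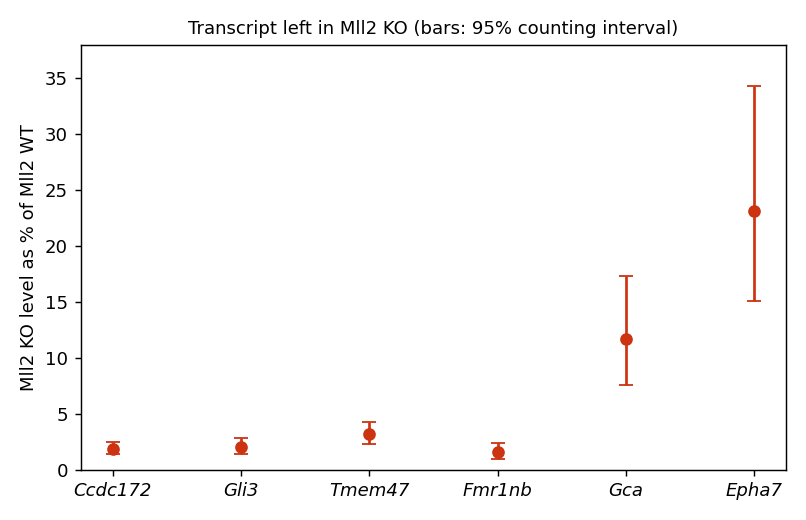
Level left in Mll2 KO as a percentage of Mll2 WT, from the summed counts of 2 libraries a group, with 95% exact binomial intervals for counting error only. Fmr1nb, Ccdc172, Gli3 and Tmem47 lie at 1.56 to 3.15%, Gca at 11.7% and Epha7 at 23.1%.

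Levels can be compared between genes only per transcript length. In Mll2 WT, Ccdc172 had 44.5 CPM per kilobase of its longest coding transcript, Fmr1nb 27, Tmem47 6.26, Gli3 3.64, Gca 1.21 and Epha7 0.335. In Mll2 KO the order was Ccdc172 at 0.833, Fmr1nb at 0.419, Tmem47 at 0.197, Gca at 0.142, Epha7 at 0.0774 and Gli3 at 0.0742 CPM per kilobase. Gli3 thus moved from the fourth to the last place and Epha7 up from it, though the error of the lowest values is wide. Ccdc172 and Fmr1nb, the genes known from the male germ line, were the most abundant per length in both control groups.

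Adjusted p-values below are from edgeR's quasi-likelihood test with Benjamini-Hochberg adjustment over all tested genes, and genes under 0.05 are called. In Mll2 KO, 30.6% of 16847 genes were called, 2730 lower (16.2%) and 2428 higher (14.4%). All 6 genes were called lower and had both KO libraries below both WT libraries, as did 32% of all tested genes, while 32.2% had both above. Their selection fixed this. In the libraries labelled DKO, 30.9% of tested genes were called, 19.4% higher and 11.5% lower. Gca and Epha7 were called higher and Ccdc172 and Fmr1nb lower, and these were also the genes whose groups did not overlap (43.4% of all genes lay above and 26.9% below). The difference between the lines was called lower for the 6 genes, which their selection fixed too, and for 12.9% of all genes, with 6.68% higher and 19.5% in either direction. Over all tested genes the median log2 difference came to 0.02 in Mll2 KO and 0.12 under the DKO label.

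The comparison of the control groups asks whether the 6 genes started from the same level in both lines. It was not the contrast of the selection, but the WT libraries entered it, and line, strain and preparation cannot be told apart. Of all tested genes, 44.3% were called between the control groups, 25.3% higher and 19% lower in Mll2 WT, while 38% had both WT libraries above both controls and 37.2% below. Of the 6, Tmem47 lay above and Ccdc172 below in this way. Of the 6 genes only Ccdc172 was called, with 44.9 ± 1.87 CPM (SD, n = 2) in Mll2 WT and 61.3 ± 1.68 CPM in the H2A.Z controls (log2 -0.45 ± 0.13, edgeR adjusted p = 0.0097). That call ended without H2A.Z control 1 or 2 or Mll2 WT 2 (adjusted p = 0.0843, 0.052 and 0.107). Tmem47 was at 25.1 ± 5.02 against 18.2 ± 1.69 CPM (log2 0.46 ± 0.20, adjusted p = 0.0719), and was called without Mll2 WT 1, Mll2 KO 1 or Mll2 KO 2 (adjusted p = 0.0481, 0.0181 and 0.0179). Gli3 (0.32 ± 0.34), Fmr1nb (-0.17 ± 0.18), Gca (0.01 ± 0.27) and Epha7 (0.47 ± 0.51) differed by less than their SE, with adjusted p from 0.478 to 0.98, which does not show that their levels were equal.

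**Figure D4:**
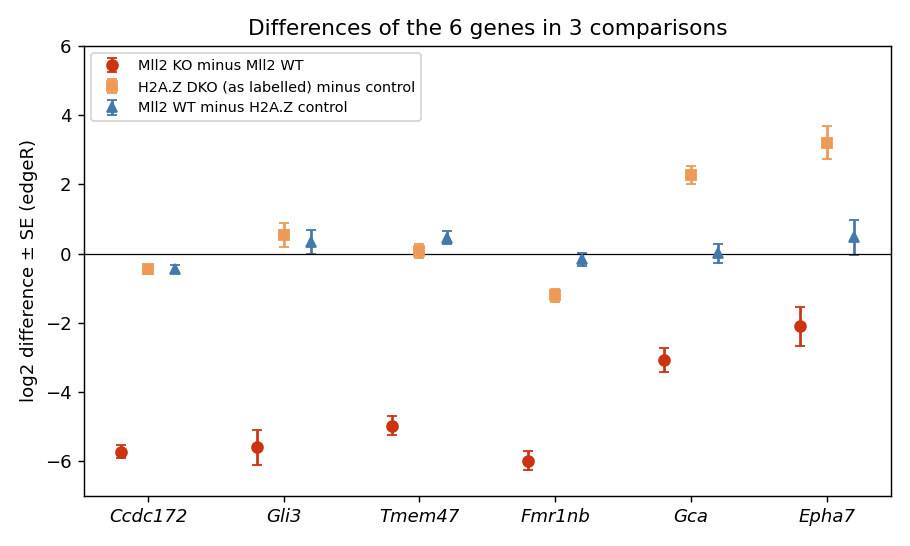
Log2 differences with SE from the edgeR fit, for Mll2 KO minus Mll2 WT (circles), libraries labelled H2A.Z DKO minus H2A.Z control (squares) and Mll2 WT minus H2A.Z control (triangles). In Mll2 KO the values run from -5.98 for Fmr1nb to -2.11 for Epha7, while the control groups differ by at most 0.47 in size.

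The other genes of each family or pathway were then examined in Mll2 KO. They were open to the selection and were not picked, and the lists were chosen with earlier results of these data known. Their calls are therefore not independent of the choice. In Hedgehog signalling, 4 of 17 other tested genes rose and 1 fell, beside 14.4% and 16.2% of all genes. Gli2, the factor most closely related to Gli3 and mainly an activator, had 9.52 and 11.3 CPM in WT against 21.5 and 25.6 CPM in KO, a rise of 1.18 ± 0.18 in log2 (edgeR adjusted p = 0.000167). Both Gli2 values in Mll2 KO lay above both in WT, so Gli2 and Gli3 went in opposite directions there. Gli2 was called higher under the DKO label too (log2 0.56, edgeR adjusted p = 0.0478), where Gli3 was not called (0.28). Its difference between the lines was not called (adjusted p = 0.118 for Gli2). Hhat, the acyltransferase of Hedgehog ligands, rose by 1.13 ± 0.17 on the log2 scale (adjusted p = 0.000108), with 9.78 and 8.01 CPM in WT against 20.2 and 18.9 CPM in KO. Of the remaining calls, the kinase genes Prkaca (0.76) and Gsk3b (0.47) were higher and Spopl (-0.81), an adaptor of a ubiquitin ligase, lower on the log2 scale. None of these 3 was called without Mll2 WT 1, Mll2 WT 2 or Mll2 KO 2, with adjusted p from 0.0544 to 0.327, and Spopl also not without any 1 library of the H2A.Z line (0.051 to 0.056). Sufu, the inhibitor that holds GLI proteins, had 33.4 and 29.7 CPM in WT against 32.1 and 44.4 CPM in KO (adjusted p = 0.186), and was called higher without Mll2 KO 1 (0.0033). The ligand gene Dhh and the receptor gene Ptch1 stayed under 2 CPM in both groups. The number called was 3 without Mll2 WT 1 or 2 and 10 without Mll2 KO 1.

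Among Eph receptors and ephrins, 4 of 16 other tested genes rose and 3 fell, beside 14.4% and 16.2% of all genes. Epha4 and Epha3, receptors of the same class as Epha7, fell: Epha4 from 237 and 178 CPM in WT to 85.6 and 106 CPM in KO (-1.12 ± 0.14, edgeR adjusted p = 2.08e-05), and Epha3 from 21.3 and 22.8 CPM in WT to 10.8 and 9.01 CPM in KO (-1.15 ± 0.16, adjusted p = 5.84e-05). Neither was called under the DKO label, with log2 differences of 0.22 (adjusted p = 0.25) and 0.06 (adjusted p = 0.79). Ephb1, a receptor of ephrin-B ligands, rose from 0.727 and 0.725 CPM in the controls to 4.42 and 5.61 CPM (log2 2.78 ± 0.28, adjusted p = 2.55e-06), and Efna1, a ligand of EphA receptors, from 36.3 and 35.9 CPM in the controls to 106 and 90.9 CPM (log2 1.45 ± 0.14, adjusted p = 1.63e-06). Both rose under the DKO label too, by 2.19 (adjusted p = 1.81e-05) and 0.98 (adjusted p = 8.28e-05). Epha6 had 15.6 and 20.4 CPM in WT against 19.2 and 16 CPM in KO (adjusted p = 0.903). The number called was 11 and not 7 without Mll2 KO 1, and 5 without Mll2 WT 1 or 2.

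Of the other 5 tested penta-EF-hand genes, 1 fell and none rose in Mll2 KO, beside 16.2% and 14.4% of all genes. Sri, which encodes sorcin, the protein most closely related to grancalcin, fell from 21.9 and 25.1 CPM in the controls to 7.08 and 5.21 CPM (log2 -1.93 ± 0.17, edgeR adjusted p = 8.44e-07). Under the DKO label Sri fell as well, from 29.2 and 29.8 CPM in the controls to 15 and 15 CPM (log2 -0.98, adjusted p = 0.000472), where Gca was higher. Pdcd6 and Pef1, partner proteins of the same family, were at -0.17 and -0.33 in Mll2 KO (adjusted p = 0.205 and 0.172), though Pdcd6 was called lower without Mll2 KO 1 (0.0289). They fell by 0.96 and 1.09 on the log2 scale under the DKO label (adjusted p = 7.23e-06 and 0.000523). Capns1, the small calpain subunit, had 35.8 and 42.9 CPM in WT against 40.5 and 67.1 CPM in KO (adjusted p = 0.0883), and was called higher without Mll2 KO 1 (9.39e-05). The number called was 4 without Mll2 KO 1.

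In the PMP22, EMP and claudin superfamily, 2 of 15 other tested genes rose and 3 fell in Mll2 KO. Of all genes, 14.4% were called higher and 16.2% lower. Emp2, an epithelial membrane protein gene, fell from 194 and 170 CPM in the controls to 134 and 108 CPM (log2 -0.59 ± 0.12, edgeR adjusted p = 0.00156). The other calls were Cldn8 (-0.59), Cldn7 (-1.24), Cldn15 (0.62) and Pmp22 (1.04), and each ended without at least 1 library of the Mll2 line, with adjusted p up to 0.259. The other tested genes of the family lay between -1.24 and 1.04, against -4.98 for Tmem47. The number called was 2 without Mll2 WT 1, 1 without Mll2 WT 2, and 3 without Mll2 KO 1 or Mll2 KO 2.

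Fmr1, the neighbour of Fmr1nb that encodes an RNA-binding protein, rose by 0.81 ± 0.16 on the log2 scale in Mll2 KO (edgeR adjusted p = 0.00125), with 16 and 17.2 CPM in WT against 26.7 and 31.6 CPM in KO. Fmr1 ends 43.9 kb before Fmr1nb begins. Of the 6 other fragile X genes, 3 rose and 1 fell, beside 14.4% and 16.2% of all genes. Under the DKO label, Aff2 (log2 1.77), Fxr2 (0.94) and Cyfip1 (-0.63) were called (edgeR adjusted p = 0.02, 0.00195 and 0.00493). None of the 6 other fragile X genes was called for the difference between the lines. Besides Fmr1, the calls in Mll2 KO were Aff2 (log2 2.06), Fxr2 (0.57) and Cyfip1 (-0.59). These ended without Mll2 WT 1 (adjusted p = 0.116, 0.099 and 0.0741), and Aff2 and Fxr2 also without Mll2 WT 2 (0.0598 and 0.154) and Fxr2 without Mll2 KO 2 (0.49). The number called was 1 without Mll2 WT 1 and 2 without Mll2 WT 2. Fxr1, a relative of Fmr1, had 323 and 380 CPM in WT against 292 and 297 CPM in KO (adjusted p = 0.0836), and was called lower without Mll2 KO 2 (0.0238).

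Among tektins and coiled-coil genes of the sperm flagellum, 3 of 9 other tested genes fell and none rose in Mll2 KO. Of all genes, 16.2% were called lower and 14.4% higher. Ccdc65, a subunit of the dynein regulatory complex of cilia, fell from 3.31 and 2.97 CPM in the controls to 1.11 and 1.21 CPM (log2 -1.43 ± 0.32, edgeR adjusted p = 0.0036). It also fell under the DKO label (-2.03, adjusted p = 0.000412), as did Tekt2 (-0.87, edgeR adjusted p = 0.00504). Drc1 was not called there (0.31, adjusted p = 0.435). Tekt2 and Drc1 were lower by 0.70 and 0.85 on the log2 scale (adjusted p = 0.0177 and 0.0421), and were not called without Mll2 WT 2 (0.204 and 0.074). Drc1 was not called without any 1 of the other libraries either, except Mll2 KO 1 (0.0576 to 0.237). Tekt4 had 23 and 20.1 CPM in WT against 18.9 and 17.6 CPM in KO (adjusted p = 0.256). The number called was 1 without Mll2 WT 2.

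**Figure D5:**
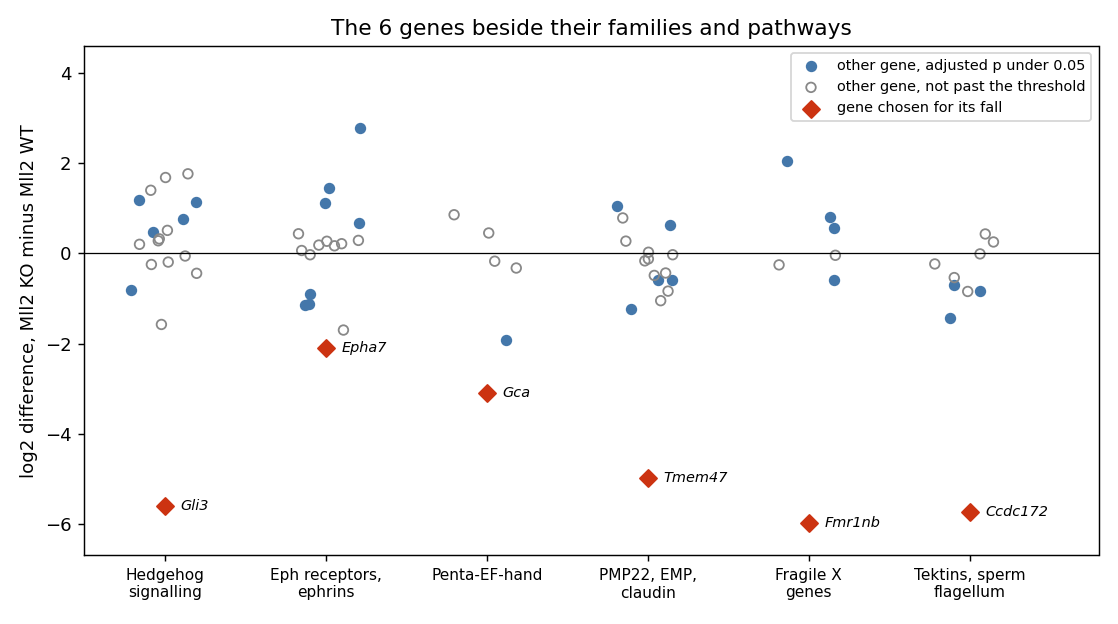
Log2 difference between Mll2 KO and Mll2 WT for the 6 genes (diamonds) and the other tested genes of their families or pathways (circles, filled where the edgeR adjusted p is under 0.05). Each of the 6 lies below every other gene of its list, Epha7 by the smallest margin, which follows from how they were chosen.

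The nearest tested gene on each side gave 12 neighbours of the 6 genes. In Mll2 KO, 2 of these were lower, 2 higher and the other 8 not called, near the shares of all tested genes (16.2% lower and 14.4% higher). Gm6556, which overlaps the start of Gli3, had 20 and 17 counts in Mll2 WT and 0 and 0 in Mll2 KO, with 5 and 12 counts in the H2A.Z controls and 12 and 9 under the DKO label (edgeR adjusted p = 0.000761 in Mll2 KO). Manea, a mannosidase gene 2470 kb from Epha7, fell from 4.17 and 3.46 CPM in the controls to 0.843 and 0.403 CPM (log2 -2.60 ± 0.33, adjusted p = 3.2e-05). The neighbours of Fmr1nb, Fmr1 and Aff2, were the pair that rose, Aff2 not without Mll2 WT 1 or 2 (0.116 and 0.0598). Hspa12a beside Ccdc172 had 28.6 and 28 CPM in WT against 20.6 and 28.7 CPM in KO (adjusted p = 0.379), and Kcnh7 beside Gca was under 1 CPM in every library. Beside Ccdc172, Tmem47, Fmr1nb and Gca no nearest tested gene was called lower. Without Mll2 KO 2, however, Hspa12a (-0.50, adjusted p = 0.0146) and 4930595M18Rik beside Tmem47 (-2.57, adjusted p = 0.0032) were, and the latter also with a replicate block (0.0314) and with no filter on low counts (0.0242).

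The genes most like each of the 6 over the 8 libraries were taken by the smallest root-mean-square distance of centred log2 CPM, among 8082 candidate genes whose highest group mean reached 10 CPM. For Ccdc172 and Fmr1nb all 3 nearest were X-linked lymphocyte-regulated genes of the Sycp3-related Xlr family: Xlr5c, Xlr3c and Xlr4b, at distances of 0.401 to 0.533 from Ccdc172 and 0.362 to 0.58 from Fmr1nb. Xlr3c had mean levels of 18.6 CPM in Mll2 WT, 0.421 in Mll2 KO, 26.3 in the H2A.Z controls and 10.9 under the DKO label, close to the steps of Fmr1nb. Xlr genes were also among the 3 nearest to Gli3 (Xlr5c at 0.646 and Xlr4c at 0.708) and to Tmem47 (Xlr4c at 0.431). Near-identical Xlr copies can share reads, so the values of single Xlr genes are uncertain. Tex15, known for its role in meiosis and transposon silencing in germ cells, was near Gli3 (0.602) and Tmem47 (0.374), with 220 CPM in Mll2 WT and 8.1 CPM in Mll2 KO. The zinc finger gene Zfp770 was nearest to Tmem47 (0.369), with 23.8 CPM in Mll2 WT, 1.3 in Mll2 KO, 22 in the H2A.Z controls and 20.2 under the DKO label. Hspb1, which encodes a small heat shock protein, was nearest to Gca (0.317), with 4.16 CPM in Mll2 WT, 0.387 in Mll2 KO, 4.45 in the H2A.Z controls and 15.6 under the DKO label. Among the candidates, which left out the 6 genes, the closest to Epha7 was the sulfotransferase gene Sult2b1 at 0.778. Gca itself was closer to Epha7, at 0.673.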

How the data were processed

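The deposited table holds whole-number raw counts for 35976 gene symbols in 8 libraries, made by the authors and not normalised. The tools named per the submitters' processing notes are STAR 2.7.3, RSEM 1.3.1 and Trim Galore 0.6.4, on build mm10. The annotation is not given in the sources used here, nor are strand use and rounding. From the counts, 1 fit with 4 group means was made in edgeR 4.0.16 (R 4.3.3): filterByExpr by group kept 16847 genes, scaling used TMM (trimmed mean of M-values), and the robust quasi-likelihood test was used with 4 residual degrees of freedom. CPM divide by the counts in tested genes times the TMM factor, and the prior count for log2 CPM was 2. The SE was derived from the F statistic. The code was tested on simulated data. The alternatives were DESeq2 1.42.0, other scalings, no filter, a line fitted alone, a replicate block and leaving out each library.

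The 6 genes and all lists were chosen with earlier results of these data known. Named genes were the 6, the targeted genes, list genes at 1 CPM or more (6 by smallest p in Mll2 KO, plus those at 10 CPM or more), the nearest tested neighbours, and the 3 genes most like each of the 6, leaving out predicted, pseudogene and microRNA symbols. Promoter windows came from RefSeq (GRCm38.p6).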

Additional observations from a re-analysis of the deposited data

Results flagged for a closer look

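Among 78 related and neighbouring genes, 15 (19.2%) had mutant effects that differed between the lines by edgeR's interaction contrast, Mll2 line minus H2A.Z line (Benjamini-Hochberg adjusted p under 0.05), beside 19.5% of all tested genes. The difference of log2 effects was -1.33 for Epha4, -1.22 for Epha3 and -0.62 for Emp2, which fell in Mll2 KO and were not called under the DKO label. Hhat and Efna4 were higher in Mll2 KO and not called under the DKO label. Efna4 was not called in Mll2 KO without Mll2 WT 1 or Mll2 WT 2 (log2 0.62 and 0.71). The difference of log2 effects was 1.06 for Hhat and 1.14 for Efna4. It was 0.90 for Spop, 0.78 for Pdcd6 and 0.76 for Pef1, which fell under the DKO label and were not called in Mll2 KO. It was -1.55 for Cldn9 and -0.74 for Cldn15, which rose by 1.43 and 1.36 on the log2 scale under the DKO label. It was -1.72 for Dhh and -3 for Cldn6, both outside the rule for named genes, which rose by 1.28 and 2.51 under the DKO label and were not called in Mll2 KO. It was -0.95 for Sri, which fell in both, -1.90 for Manea, and -7.35 for Gm6556, whose size depends on the prior count because Mll2 KO had 0 counts.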

How the results depend on the processing

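The numbers of genes called, 5158 in Mll2 KO, 5198 under the DKO label, 3291 for the difference between the lines and 7464 between the control groups, ran from 2681 to 6819, from 2642 to 6568, from 1639 to 4639 and from 5183 to 8659 when each library was left out in turn. With library size alone as the scaling, 62.9% and not 47.1% of calls were higher in Mll2 KO, 45.5% and not 62.9% under the DKO label, and 63% and not 34.2% for the difference between the lines, and the median of all genes moved from 0.02 to 0.14 and from 0.12 to 0.00. With the H2A.Z line alone, 48.6% of calls were higher under the DKO label.

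Of the 6 genes, those called numbered 5 to 6 in Mll2 KO, 3 to 4 under the DKO label, 5 to 6 for the difference between the lines and 0 to 2 between the control groups over the left-out libraries. Between the control groups 2 were called with library size alone and with no filter on low counts. The choice of the 6 genes used the first 3 of these contrasts, so these counts are no sign of stability. In Mll2 KO, Epha7 was not called without Mll2 WT 1 or Mll2 KO 2, and under the DKO label Ccdc172 was not called without any 1 of the 4 libraries of its line. For the difference between the lines, Gli3 was not called without Mll2 KO 1.

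For the other list genes called in Mll2 KO, leaving out libraries gave 3 to 10 for Hedgehog, 5 to 11 for Eph and ephrin, 1 to 4 for penta-EF-hand, 1 to 4 for PMP22, EMP and claudin, 1 to 4 for fragile X and 1 to 4 for tektin genes. With the Mll2 line alone they were 2 for Hedgehog, 3 for PMP22, EMP and claudin and 1 for tektin genes. With library size alone they were 3 for penta-EF-hand and 3 for PMP22, EMP and claudin genes, and with no filter 3 for penta-EF-hand genes. The cause was not tested.

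Replicate numbers were not treated as pairs: over genes, the replicate differences of same-numbered groups had a correlation of 0.04 between H2A.Z control and the DKO label and of -0.022 between Mll2 WT and Mll2 KO. With a replicate block 4968 genes were called in Mll2 KO, 4988 under the DKO label and 3119 for the difference between the lines, and no call of the 6 genes changed. A library left alone in its group by leaving out the other was assumed to vary like the other groups.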

Other observations

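The palindrome TCTCGCGAGA, shared by the windows of Ccdc172 and Fmr1nb, was also present in those of 112 other tested genes. Of these, 14 were called lower in Mll2 KO (12.5%) and 17 higher (15.2%), beside 16.6% and 14.7% of all 12440 tested genes with a window (edgeR adjusted p under 0.05). Under the DKO label 10.7% of the 112 were lower and 22.3% higher, beside 12.1% and 19.7% of all. The set was chosen after the sequences had been seen and was given no test.

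Of the 6 genes, Tmem47 and Fmr1nb are X-linked. On the X chromosome 145 of 506 tested genes were called lower in Mll2 KO (28.7%), beside 16.4% of 15730 tested genes with a position in RefSeq. The 145 include Tmem47 and Fmr1nb, and Xlr genes, whose values are uncertain, were not set aside. The share was not examined with libraries left out.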
